A study of Mus musculus with 12 samples.

Results

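The 54 genes described here encode chemokines and their receptors. They are all genes whose single symbol in the array's annotation begins with Ccl, Cxcl, Cx3cl, Xcl, Ccr, Cxcr, Cx3cr, Xcr or Ackr followed by a number, out of 30141 named genes. They comprise 35 ligands and 19 receptors, of which 2 (Ackr1 and Ackr4) are atypical receptors, and each was measured by 1 probe set. Affymetrix arrays measured gene expression at week 10 in the seminal vesicles of C57BL/6 males. WT_DES mice were wild type and received diethylstilbestrol (DES), a synthetic estrogen, dissolved in corn oil and injected subcutaneously from day 1 (birth) to day 5 of life at a daily 2 µg for each pup. WT_vehicle mice were wild type and received the same volume of corn oil. The aERKO_DES and aERKO_vehicle mice carried a knockout of estrogen receptor alpha, the product of Esr1, and received the same treatments. The 4 groups held 3 arrays each. Whether the arrays of a group represent different animals is not stated in the labels, and the p-values therefore rest on a spread that may be technical.

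Chemokines are small secreted proteins that bind receptors coupled to inhibitory G proteins and direct the movement of leukocytes. They are named for the spacing of their first cysteines (CC, CXC, CX3C, C). Some are made constantly and place cells in lymphoid or mucosal tissue, while others are made by epithelium, stroma and leukocytes during inflammation. Several ligands share a receptor and several receptors share a ligand. Atypical receptors bind chemokines without this signalling and take them up or carry them across cells. The seminal vesicle is an accessory sex gland whose secretory epithelium and smooth muscle coat develop under androgens.

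All values are log2 expression, and a difference of 1.0 is a 2-fold change. Median values over all probe sets lay between 5.95 and 6.14 on the 12 arrays, and the 23 background control probe sets averaged 4.87 in WT_DES and 5.31 in WT_vehicle. Over the 20131 genes that passed a filter on low values, arrays of 1 group correlated at 0.982 to 0.996. WT_DES arrays correlated with those of other groups at 0.867 to 0.919 over the same genes. The 8 seminal vesicle secretion genes checked had array means between 13.6 and 14.0. Esr1 was lower in aERKO than in WT by 0.76 on the log2 scale with either treatment (limma, adjusted p = 1.06e-05 given DES and 0.00588 given vehicle). It was measured at 6.81 to 6.99 in aERKO_DES and 6.88 to 7.09 in aERKO_vehicle, against 7.55 to 7.74 in WT_DES and 7.66 to 7.80 in WT_vehicle, so its probe set still gave signal in the knockout.

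DES given to WT pups was followed at week 10 by higher levels of most chemokine genes. Of the 47 members that passed the filter on low values, 36 were higher in WT_DES than in WT_vehicle, 1 was lower and 10 were not called (limma, adjusted p under 0.05 over all 20131 genes tested). Over all genes tested, 20.7% were called higher and 23.3% lower. Members at least 2-fold higher numbered 25, against 4.58% of all genes tested, and the members' median difference was 1.05, against -0.05 over all genes tested. The 3 arrays of each group did not overlap for 37 members, against 60.9% of all genes tested. Of 32 tested ligands 26 were higher with a median of 1.22, and of 13 tested signalling receptors 9 were higher with a median of 0.62.

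Of these 47 members, 13 passed the filter only because of their level in WT_DES, so the filter itself favoured a call of higher for them. They were Ccl8, Ccl12, Ccl20, Ccl28, Cxcl2, Cxcl5, Cxcl10, Cxcl15, Ccr1, Ccr2, Ccr6, Cxcr5 and Cxcr6. All 13 were among the 37 members whose groups did not overlap, which the filter favoured too. The other 34 passed on the 9 arrays outside WT_DES. Of these 34, 23 were higher, beside 19% of the 19572 genes that passed the same way. At least 2-fold higher were 15 of the 34, beside 4.58% of all 20131 genes tested. With no filter, 36 of all 54 members were higher, beside 13.7% of 30141 genes.

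**Figure D1:**
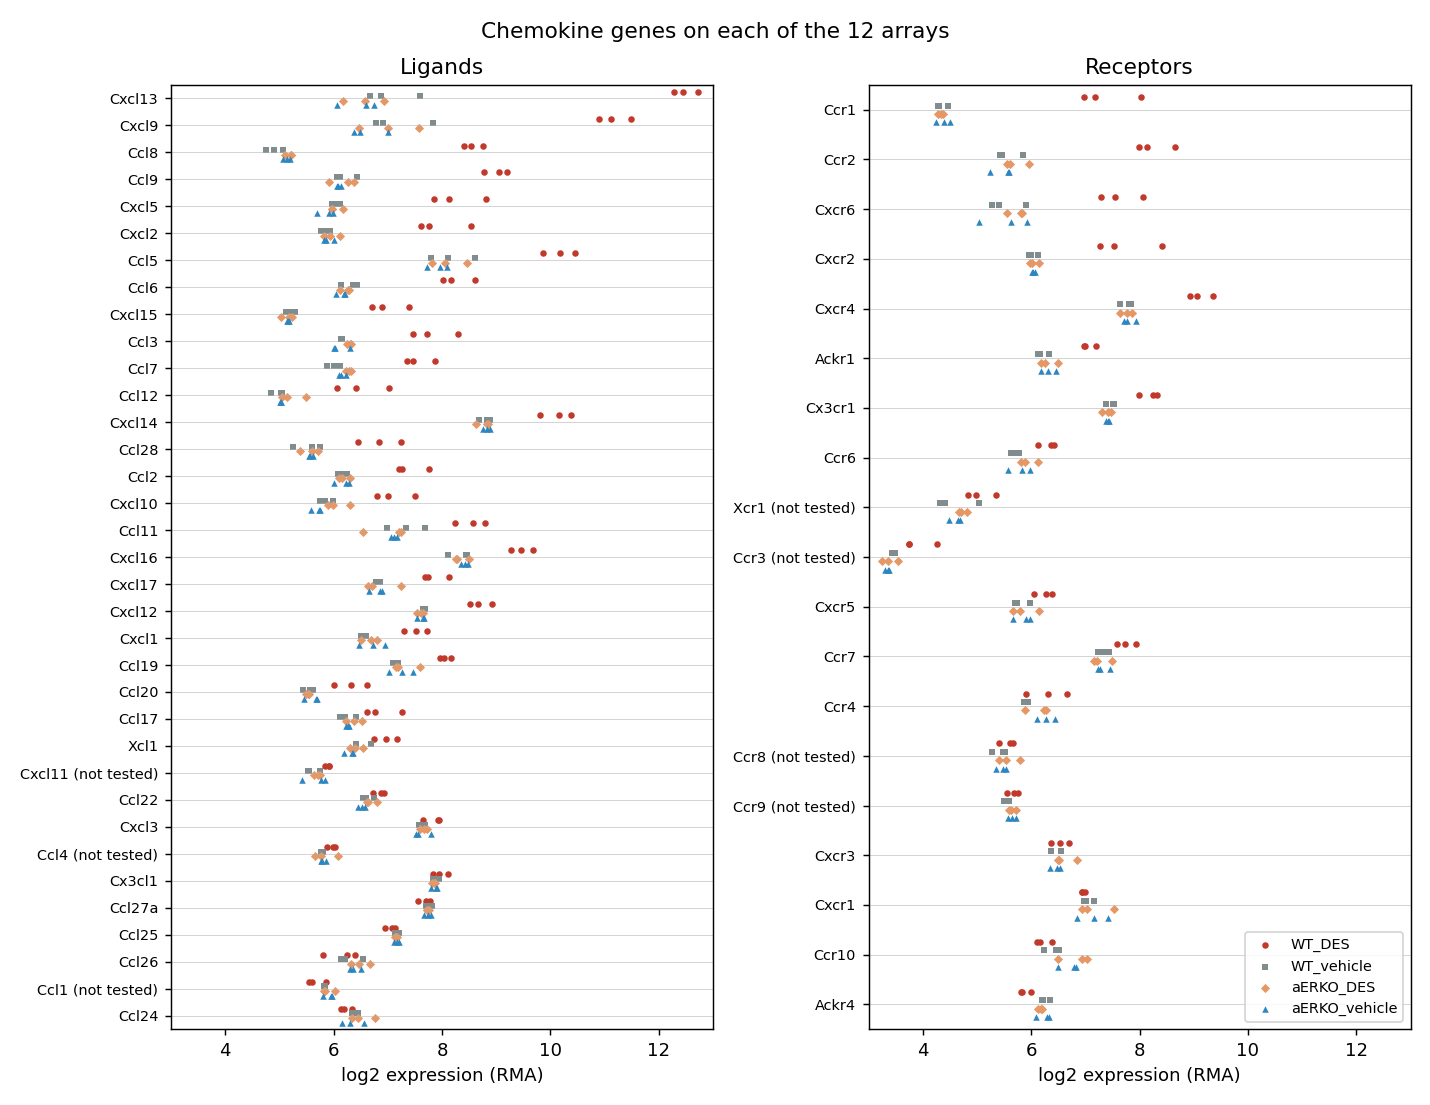
Log2 expression (x axis) of all 54 chemokine genes (1 per row; ligands in one panel and receptors in the other, the 7 that did not pass the filter marked) on each of the 12 arrays, with 1 point per array in the colour of its group. In the upper rows the 3 WT_DES points lie to the right of the other 9, as for Cxcl13 and Ccr1, and in the lowest rows they lie among them or to the left.

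Cxcl13, which attracts B cells and follicular helper T cells through Cxcr5, was the member with the largest difference. It measured 12.29, 12.72 and 12.44 in WT_DES, against 7.58, 6.67 and 6.88 in WT_vehicle, a difference of 5.44 ± 0.25 (SE; adjusted p = 4.39e-09) or 43.4-fold. All WT_DES arrays lay far above all WT_vehicle arrays. Its receptor Cxcr5 measured 6.05, 6.28 and 6.38 in WT_DES, against 5.99, 5.73 and 5.70 in WT_vehicle, a difference of 0.43 ± 0.13 (adjusted p = 0.0206). The groups did not overlap, but the gap between them was small, and the call was lost without WT_DES array 2 or 3 or without WT_vehicle array 2 or 3.

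The ligands of Cxcr3, a receptor of activated T and NK cells, are induced by interferon gamma. Cxcl9 measured 10.90, 11.48 and 11.12 in WT_DES, against 6.78, 6.91 and 7.84 in WT_vehicle, a difference of 3.99 ± 0.30 (adjusted p = 5.99e-07) or 15.9-fold. Cxcl10 measured 6.79, 7.50 and 7.01 in WT_DES, against 5.76, 5.84 and 5.99 in WT_vehicle, a difference of 1.24 ± 0.15 (adjusted p = 5.04e-05). For both ligands every WT_DES array exceeded every WT_vehicle array. Cxcl11, the third ligand, did not pass the filter and averaged 5.89 in WT_DES and 5.61 in WT_vehicle. Cxcr3 itself measured 6.37, 6.53 and 6.69 in WT_DES, against 6.37, 6.55 and 6.37 in WT_vehicle, and its groups overlapped. Its difference was 0.10 ± 0.11 (adjusted p = 0.472), and it was called higher (0.46) when arrays were scaled to their 4 hybridization controls, which are spiked-in transcripts.

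CXC ligands with a glutamate-leucine-arginine motif attract neutrophils through Cxcr2. Cxcl5 measured 7.85, 8.82 and 8.12 in WT_DES, against 6.01, 6.11 and 5.98 in WT_vehicle, a difference of 2.23 ± 0.18 (adjusted p = 1.2e-06). Cxcl2 measured 7.76, 8.54 and 7.62 in WT_DES, against 5.84, 5.77 and 5.93 in WT_vehicle, a difference of 2.13 ± 0.18 (adjusted p = 1.77e-06). Array 2 was the highest of WT_DES for both, and no WT_DES array came near the WT_vehicle range. Cxcl1 measured 7.29, 7.73 and 7.51 in WT_DES, against 6.57, 6.51 and 6.59 in WT_vehicle and was 0.96 ± 0.13 higher (adjusted p = 9.05e-05). Cxcl3 behaved differently from the others in that its groups overlapped, with 7.64, 7.95 and 7.93 in WT_DES, against 7.68, 7.58 and 7.66 in WT_vehicle. Its difference was 0.20 ± 0.09 (adjusted p = 0.0992), and it was called higher (0.56) with scaling to the hybridization controls. Cxcl15, known from mouse lung epithelium as lungkine, measured 6.71, 7.39 and 6.89 in WT_DES, against 5.22, 5.12 and 5.28 in WT_vehicle, a difference of 1.79 ± 0.13 (adjusted p = 5.08e-07). The WT_vehicle level of Cxcl15 was under the background control mean, so its difference was measured against background.

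Cxcr2, the neutrophil receptor, measured 7.27, 8.42 and 7.53 in WT_DES, against 6.00, 5.97 and 6.12 in WT_vehicle, a difference of 1.71 ± 0.21 (adjusted p = 4.15e-05). The WT_DES arrays were widely spread and all exceeded WT_vehicle. Cxcr1, its neighbour on chromosome 1, measured 6.99, 6.93 and 6.94 in WT_DES, against 7.01, 6.97 and 7.16 in WT_vehicle with overlapping groups and a difference of -0.09 ± 0.15 (adjusted p = 0.639).

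Promoters of 6 CXC ligand genes on chromosome 5 are shown, picked with their differences in view. Cxcl1, Cxcl2 and Cxcl3 are ligands of Cxcr2 that differed in their call, Cxcl9 and Cxcl10 are the tested ligands of Cxcr3, and Cxcl13 had the largest difference. Cxcl5 and Cxcl15 are on the same chromosome and are not shown. The sequences are from RefSeq (GRCm38.p6), run 5′ to 3′ on the gene's own strand and end at the base before the annotated start. Capitals mark matches on either strand to the NF-kB consensus, or, in Cxcl9 and at the 5′ end of Cxcl10, to an ISRE-like motif, GAAANNGAA. NF-kB carries inflammatory signals to promoters, and the ISRE is bound by interferon-activated factors. The windows are chr5:90891105-90891244 on the plus strand for Cxcl1, chr5:90903759-90903898 on the plus strand for Cxcl2, chr5:90785961-90786100 on the plus strand for Cxcl3, chr5:92328080-92328259 on the minus strand for Cxcl9, chr5:92348890-92349109 on the minus strand for Cxcl10 and chr5:95956799-95956938 on the plus strand for Cxcl13.
Cxcl1: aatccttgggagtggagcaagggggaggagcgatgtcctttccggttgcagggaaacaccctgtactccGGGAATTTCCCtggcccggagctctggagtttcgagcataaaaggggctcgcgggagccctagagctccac
Cxcl2: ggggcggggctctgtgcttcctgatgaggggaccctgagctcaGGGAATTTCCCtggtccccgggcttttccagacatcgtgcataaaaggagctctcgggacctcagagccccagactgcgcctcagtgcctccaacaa
Cxcl3: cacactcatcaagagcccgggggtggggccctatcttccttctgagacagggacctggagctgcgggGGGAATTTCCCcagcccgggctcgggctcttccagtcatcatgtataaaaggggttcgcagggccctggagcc
Cxcl9: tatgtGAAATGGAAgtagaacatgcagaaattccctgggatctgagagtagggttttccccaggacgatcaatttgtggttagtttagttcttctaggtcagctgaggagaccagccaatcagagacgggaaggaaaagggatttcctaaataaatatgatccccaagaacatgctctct
Cxcl10: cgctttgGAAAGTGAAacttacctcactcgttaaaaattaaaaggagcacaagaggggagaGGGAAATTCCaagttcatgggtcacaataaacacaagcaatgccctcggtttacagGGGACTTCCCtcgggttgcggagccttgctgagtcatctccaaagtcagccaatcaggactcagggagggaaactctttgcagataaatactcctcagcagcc
Cxcl13: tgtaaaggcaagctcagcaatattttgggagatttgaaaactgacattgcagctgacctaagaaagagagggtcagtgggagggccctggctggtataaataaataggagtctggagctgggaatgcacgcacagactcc
In Cxcl1, Cxcl2 and Cxcl3 the capitals are the same run of letters, which matched the NF-kB consensus on both strands and began 71, 97 and 73 bases before the start. Cxcl3, whose expression was not called, thus shared it with Cxcl1 and Cxcl2. Cxcl10 held 2 NF-kB matches and 1 ISRE-like match and Cxcl9 held 1 ISRE-like match, whereas Cxcl13, with the largest difference, held none of the motifs searched in the window shown.

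RefSeq held a promoter for 40 of the 54 members, and the 250 bases before the start were searched on both strands. The NF-kB consensus was found in 8 of 40 members (20%), beside 4.46% of 27025 promoters of all genes. It was present in 6 of 27 members called higher in WT_DES (22.2%) and in 2 of 13 others (15.4%). The ISRE-like motif was also found in 8 members (20%, beside 8.18% of all), among them Cxcl9, Cxcl10, Ccl3 and Ccr2. A GAS-like motif bound by STAT proteins, TTCNNNGAA, was found in 3 members (7.5%, beside 8.13% of all), namely Ccl17, Ccr6 and Cxcl14. Matches of different motifs did not overlap in the windows shown, and those of 1 motif overlapped only where the NF-kB consensus matched both strands. A match describes the letters only, and binding was not measured.

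Several CC ligand genes lie in a row on chromosome 11: Ccl2, Ccl7, Ccl11, Ccl12, Ccl8 and Ccl1. No other protein-coding gene lies between them in GRCm38.p6. Ccl8, a ligand of Ccr8 in the mouse, measured 8.40, 8.76 and 8.53 in WT_DES, against 4.76, 4.89 and 5.06 in WT_vehicle, a difference of 3.66 ± 0.10 (adjusted p = 2.84e-11). Its WT_vehicle level was under the background control mean. The 3 Ccr2 ligands were closer together. Ccl2 measured 7.27, 7.77 and 7.21 in WT_DES, against 6.09, 6.13 and 6.24 in WT_vehicle, a difference of 1.26 ± 0.13 (adjusted p = 9.48e-06). Ccl7 measured 7.47, 7.87 and 7.35 in WT_DES, against 6.11, 6.00 and 5.88 in WT_vehicle, a difference of 1.57 ± 0.11 (adjusted p = 3.52e-07). Ccl12 measured 6.06, 7.02 and 6.41 in WT_DES, against 4.84, 5.03 and 5.05 in WT_vehicle, a difference of 1.53 ± 0.19 (adjusted p = 4.19e-05), again from a WT_vehicle level below the background controls. Groups were separate for each of these genes. Ccl11, or eotaxin, which attracts eosinophils through Ccr3, measured 8.56, 8.80 and 8.25 in WT_DES, against 7.68, 6.99 and 7.33 in WT_vehicle, a difference of 1.20 ± 0.20 (adjusted p = 0.000497). The other eotaxin genes, Ccl24 and Ccl26, were not called (-0.17 and -0.14). Ccl1, at the end of the row, did not pass the filter, with means of 5.67 in WT_DES and 5.83 in WT_vehicle.

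A second row on chromosome 11 holds Ccl5, Ccl9, Ccl6, Ccl3 and Ccl4, of which all but Ccl4 are paired here with Ccr1, a receptor of monocytes and neutrophils. Ccl9 measured 9.05, 9.19 and 8.78 in WT_DES, against 6.44, 6.11 and 6.06 in WT_vehicle, a difference of 2.80 ± 0.14 (adjusted p = 7.56e-09). Ccl6 measured 8.17, 8.60 and 8.02 in WT_DES, against 6.42, 6.13 and 6.36 in WT_vehicle, a difference of 1.96 ± 0.13 (adjusted p = 1.52e-07). Both genes had non-overlapping groups with narrow spreads. Ccl5, which T and NK cells also produce, measured 9.86, 10.45 and 10.17 in WT_DES, against 7.80, 8.10 and 8.61 in WT_vehicle, a difference of 1.99 ± 0.21 (adjusted p = 1.27e-05). Ccl3, an early product of activated macrophages, measured 7.47, 8.30 and 7.73 in WT_DES, against 6.16, 6.16 and 6.14 in WT_vehicle, a difference of 1.68 ± 0.16 (adjusted p = 4.7e-06). Every WT_DES array exceeded every WT_vehicle array for both. Ccl4 did not pass the filter, with means of 5.96 in WT_DES and 5.79 in WT_vehicle.

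Ccr1 and Ccr2 had larger log2 differences than any of the ligands paired with them, though differences between genes were not tested. Both receptors passed the filter only because of WT_DES, so the filter itself favoured a large difference for them. Ccr2 in WT_vehicle averaged only 0.27 above the background controls. Ccr1 measured 7.18, 8.03 and 6.98 in WT_DES, against 4.28, 4.46 and 4.30 in WT_vehicle, a difference of 3.05 ± 0.20 (adjusted p = 1.31e-07). Its WT_vehicle level lay below the background controls. Ccr2, the receptor that brings monocytes out of the blood into tissue, measured 8.14, 8.66 and 7.98 in WT_DES, against 5.42, 5.46 and 5.85 in WT_vehicle, a difference of 2.68 ± 0.18 (adjusted p = 1.66e-07). Array 2 was again the highest of WT_DES for both receptors. Ccr3 and Ccr8 did not pass the filter. Ccr3 averaged 3.92 in WT_DES and 3.45 in WT_vehicle, both below the background controls, and it was called higher when no filter was applied. Ccr8 averaged 5.57 in WT_DES and 5.43 in WT_vehicle.

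**Figure D2:**
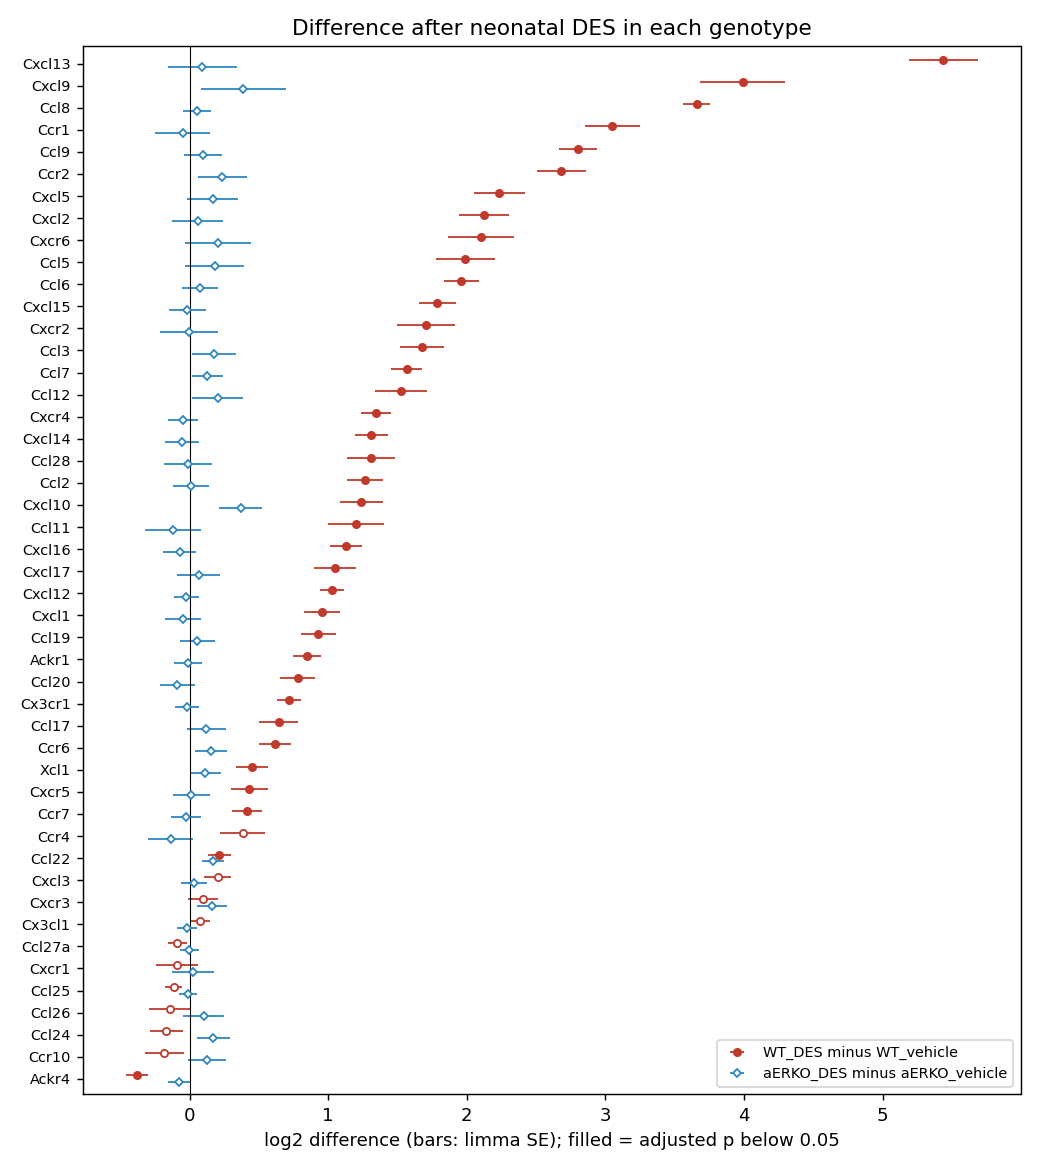
Difference between DES and vehicle on the log2 scale (x axis) with its SE for each of the 47 tested chemokine genes (1 per row), in WT and in aERKO. WT points extend from -0.38 for Ackr4 to 5.44 for Cxcl13, whereas aERKO points stay between -0.13 and 0.39.

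Cxcl12, a stromal product that holds Cxcr4-bearing cells in place, measured 8.66, 8.92 and 8.52 in WT_DES, against 7.68, 7.64 and 7.69 in WT_vehicle, a difference of 1.03 ± 0.09 (adjusted p = 1.8e-06). Cxcr4 measured 8.92, 9.36 and 9.07 in WT_DES, against 7.85, 7.65 and 7.81 in WT_vehicle, a difference of 1.35 ± 0.11 (adjusted p = 1e-06). Both partners were separate between groups with similar differences. Cxcl14, made by epithelium and fibroblasts, measured 10.15, 10.37 and 9.80 in WT_DES, against 8.83, 8.68 and 8.88 in WT_vehicle, a difference of 1.31 ± 0.12 (adjusted p = 3.56e-06). Cxcl16, a membrane-bound ligand, measured 9.27, 9.68 and 9.45 in WT_DES, against 8.11, 8.46 and 8.43 in WT_vehicle, a difference of 1.13 ± 0.12 (adjusted p = 1.03e-05). Its receptor Cxcr6, found on memory T and NKT cells, measured 7.28, 8.07 and 7.55 in WT_DES, against 5.41, 5.28 and 5.91 in WT_vehicle, a difference of 2.10 ± 0.24 (adjusted p = 2.03e-05). WT_DES lay above WT_vehicle on every array for all 5 genes.

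Ccl28, made by mucosal epithelium and drawing antibody-secreting cells through Ccr10, measured 6.44, 6.84 and 7.24 in WT_DES, against 5.75, 5.25 and 5.60 in WT_vehicle, a difference of 1.31 ± 0.17 (adjusted p = 8e-05). Ccr10 measured 6.12, 6.16 and 6.38 in WT_DES, against 6.51, 6.23 and 6.46 in WT_vehicle, with overlapping groups and a difference of -0.18 ± 0.14 (adjusted p = 0.303). Cxcl17, a chemokine-like product of mucosal epithelium, measured 8.13, 7.74 and 7.69 in WT_DES, against 6.85, 6.78 and 6.77 in WT_vehicle, a difference of 1.05 ± 0.15 (adjusted p = 0.000172). It was the only one of the 36 members called higher whose highest WT_DES value was on array 1. Ccl20, which attracts Ccr6-bearing cells to mucosa, was 0.78 ± 0.13 higher and Ccr6 0.62 ± 0.11 higher.

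Among the members of lymphoid trafficking, Ccl19 was 0.93 ± 0.13 higher and its receptor Ccr7, which brings dendritic cells and naive T cells into lymphoid tissue, 0.41 ± 0.11 higher. The Ccl19 probe set lies on a scaffold assigned to chromosome 4 with no position on it, and near-identical copies exist, so its value is uncertain. Ccl17 was 0.64 ± 0.14 higher and Ccl22 0.22 ± 0.08 higher (adjusted p = 0.0474), while their receptor Ccr4 was not called (0.38 ± 0.16, adjusted p = 0.0712). WT_DES and WT_vehicle arrays overlapped for Ccl22, and its call was lost when any one of 8 of the 12 arrays was left out. Xcl1, a ligand made by T and NK cells, was 0.45 ± 0.11 higher, and its receptor Xcr1, a marker of cross-presenting dendritic cells, did not pass the filter (means of 5.06 in WT_DES and 4.59 in WT_vehicle). Ccl25 (-0.11) and Ccl27a (-0.09), ligands of thymus and gut and of skin, were not called. The Ccl27a probes may also read near-identical copies. Ccr9, the Ccl25 receptor, did not pass the filter, with means of 5.67 in WT_DES and 5.55 in WT_vehicle.

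Cx3cr1, the receptor of patrolling monocytes and tissue macrophages, measured 7.99, 8.33 and 8.25 in WT_DES, against 7.53, 7.50 and 7.38 in WT_vehicle, a difference of 0.72 ± 0.09 (adjusted p = 3.37e-05). Its ligand Cx3cl1 measured 7.83, 8.12 and 7.94 in WT_DES, against 7.84, 7.88 and 7.94 in WT_vehicle, with overlapping groups and a difference of 0.08 ± 0.07 (adjusted p = 0.421). The receptor thus differed where the ligand was not called, though with scaling to the hybridization controls Cx3cl1 was called higher too (0.43).

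The atypical receptors went in opposite directions. Ackr1, known from venular endothelium and red cells and able to carry inflammatory chemokines across the vessel wall, measured 7.00, 7.20 and 6.97 in WT_DES, against 6.16, 6.33 and 6.13 in WT_vehicle, a difference of 0.85 ± 0.10 (adjusted p = 3.49e-05). Ackr4, which takes up Ccl19 and Ccl25, measured 6.00, 5.83 and 5.81 in WT_DES, against 6.23, 6.20 and 6.35 in WT_vehicle, a difference of -0.38 ± 0.08 (adjusted p = 0.00242). It was the only member called lower, and with scaling to the hybridization controls its difference was -0.02 and was not called.

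**Figure D3:**
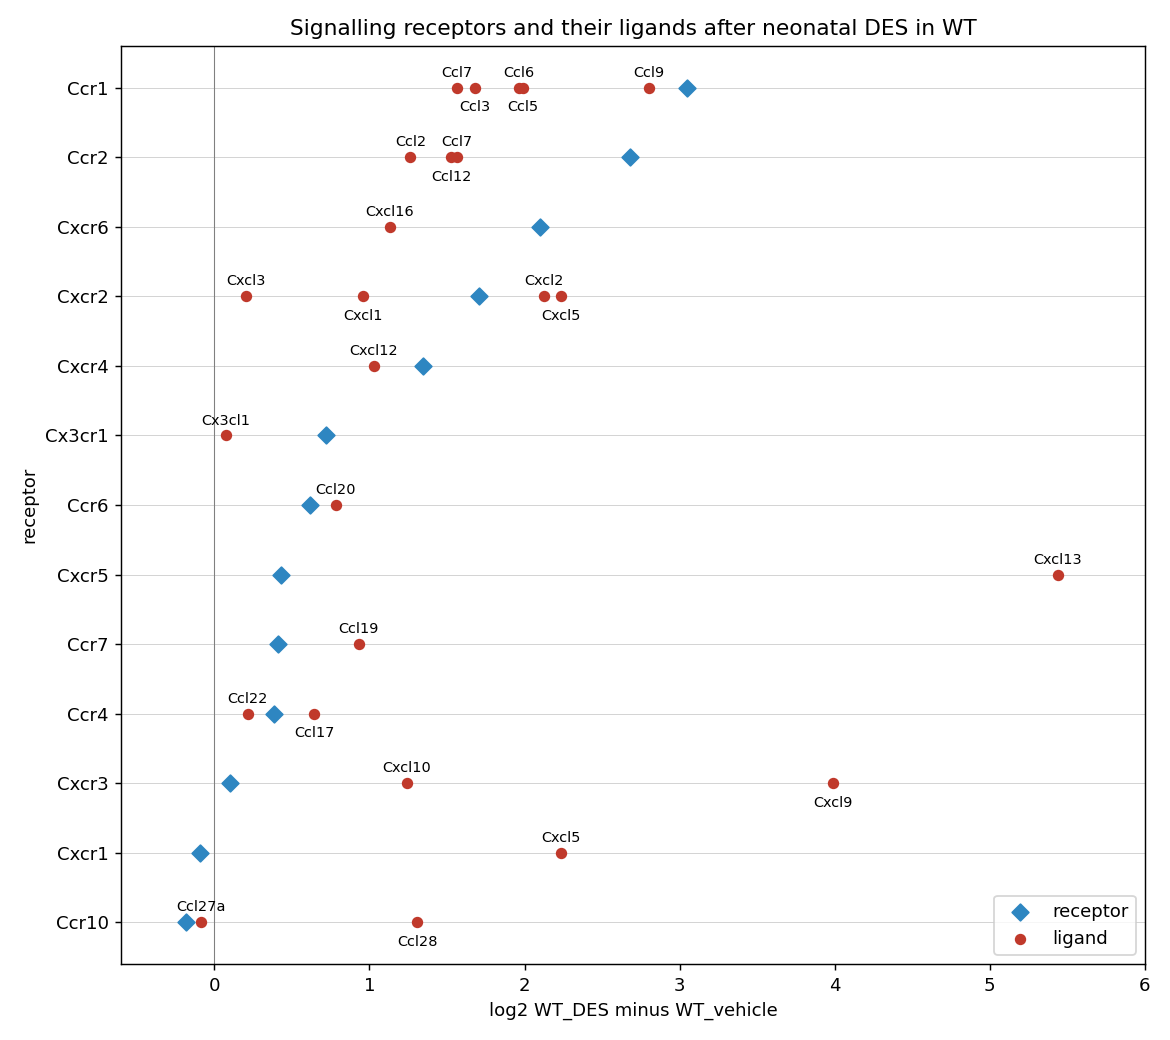
Difference between WT_DES and WT_vehicle on the log2 scale (x axis) for 13 tested signalling receptors (rows, diamonds) and the tested ligands paired with each (dots). Receptor and ligands lie to the right together for Ccr1, Ccr2, Cxcr6 and Cxcr4, whereas Cxcl9 and Cxcl13 lie far to the right of their receptors.

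Setting receptors beside their ligands gave 32 signalling pairs with both partners among the members. Both partners were called higher in 16 pairs, only the receptor in 2, only the ligand in 9 and neither in 5. Genes recur in several pairs, so the pairs are not independent, and partners that did not pass the filter count as not called. Of the 16 pairs, 13 hold a partner that passed the filter only because of WT_DES, which favoured its call. In the 9 pairs whose partners both passed on the arrays outside WT_DES, both were higher in 3 (Cxcr2 with Cxcl1, Cxcr4 with Cxcl12 and Ccr7 with Ccl19), only the receptor in 2, only the ligand in 3 and neither in 1. These 3 pairs of only the ligand were Cxcl9 with Cxcr3, and Ccl17 and Ccl22 with Ccr4. In 4 other pairs of only the ligand, the ligand passed only because of WT_DES, which favoured its call. Cxcl10 with Cxcr3 and Ccl28 with Ccr10 were among these 4. In 2 more the receptor did not pass the filter. The pairs of only the receptor were Cxcr2 with Cxcl3 and Cx3cr1 with Cx3cl1.

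**Figure D4:**
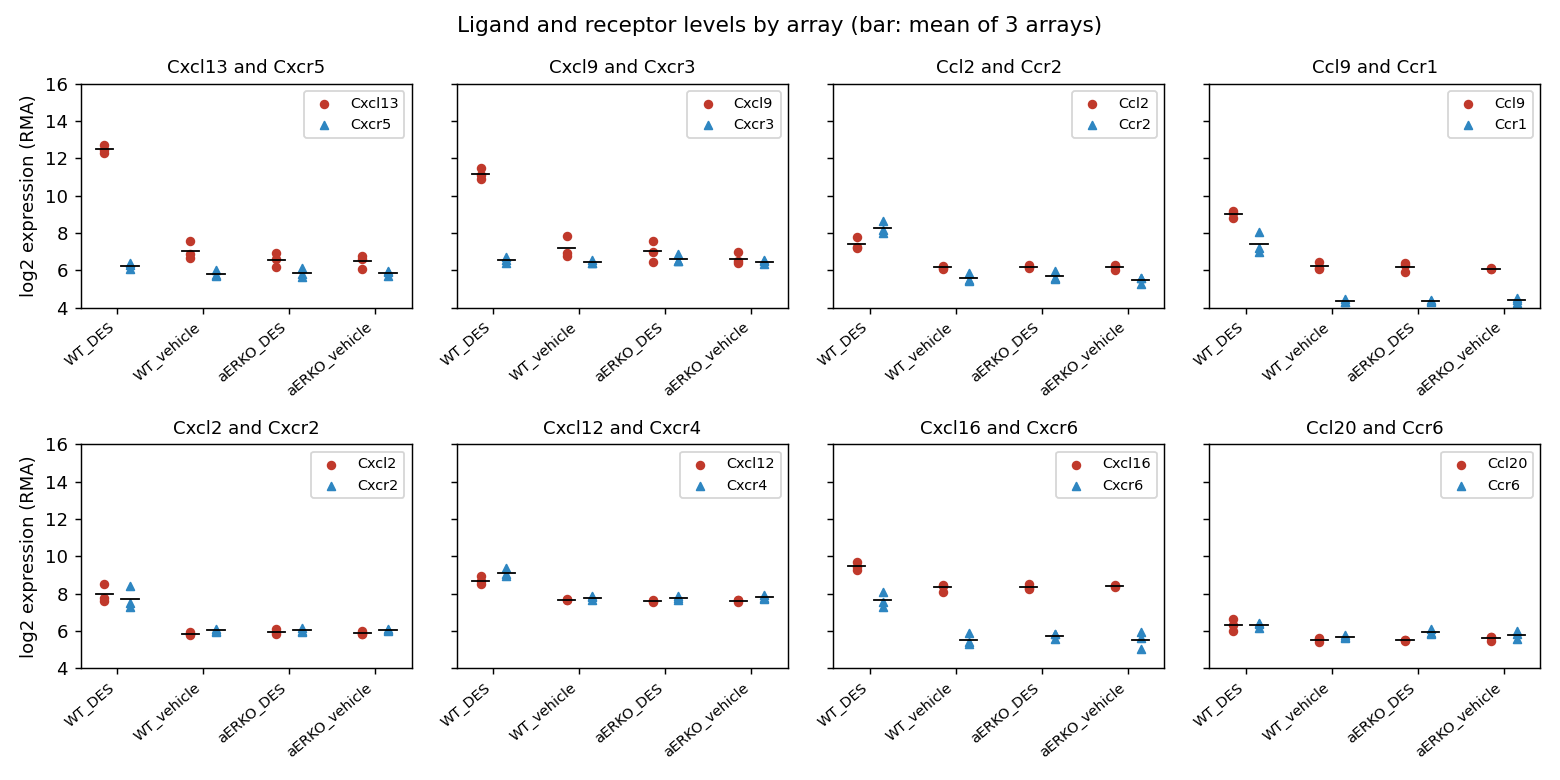
Log2 expression (y axis) on each of the 12 arrays, by group, for 8 ligands and a receptor of each, with a bar at the mean of 3 arrays. The WT_DES points stand above the other 3 groups for Cxcl13 and Cxcl9, whereas Cxcr3 shows overlapping groups, and levels are comparable between arrays of 1 gene and not between genes.

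In aERKO mice no member was called after DES, and none of the 20131 genes tested was (0%). At an unadjusted p under 0.05 by limma there was 1 member, Cxcl10, and 263 of all genes, and a limma fit with trended and robust variances also called 0. Members' differences between aERKO_DES and aERKO_vehicle ranged from -0.13 to 0.39, with a median of 0.05. Cxcl10 measured 5.98, 5.90 and 6.30 in aERKO_DES, against 5.59, 5.73 and 5.74 in aERKO_vehicle, a difference of 0.37 ± 0.15 (unadjusted p = 0.0339, adjusted p = 0.999). Groups did not overlap for Cxcl10, Ccl7, Ccl12 and Ccl22, that is 4 members, beside 6.11% of all genes tested.

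The members that differed most in WT showed no such difference here. Cxcl13 measured 6.18, 6.93 and 6.58 in aERKO_DES, against 6.74, 6.60 and 6.06 in aERKO_vehicle, a difference of 0.09 ± 0.25. Cxcl9 measured 7.00, 6.46 and 7.57 in aERKO_DES, against 6.49, 7.00 and 6.38 in aERKO_vehicle, a difference of 0.39 ± 0.30. Both sets of arrays overlapped, and the arrays of Cxcl9 were widely spread. Ccl8 measured 5.11, 5.22 and 5.22 in aERKO_DES, against 5.06, 5.13 and 5.19 in aERKO_vehicle, a difference of 0.05 ± 0.10. Ccr1 measured 4.34, 4.28 and 4.38 in aERKO_DES, against 4.39, 4.51 and 4.25 in aERKO_vehicle, a difference of -0.05 ± 0.20. Ccr1 levels thus lay below the background controls in both aERKO groups, whose controls averaged 5.28 given DES and 5.33 given vehicle. Ccr2 measured 5.96, 5.61 and 5.55 in aERKO_DES, against 5.58, 5.59 and 5.24 in aERKO_vehicle, a difference of 0.24 ± 0.18. Cxcl5, the neutrophil ligand, measured 5.97, 6.17 and 5.96 in aERKO_DES, against 5.99, 5.70 and 5.92 in aERKO_vehicle, a difference of 0.17 ± 0.18.

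The difference between the responses, aERKO minus WT, was tested directly. It was called lower for 30 of the 47 members, beside 14.1% of all genes tested, and higher for 0, beside 9.16%. Of these 30, 11 passed the filter only because of WT_DES. Among the 34 members that passed on the arrays outside WT_DES 19 were called lower, beside 12.5% of the genes that passed the same way. With no filter 30 of all 54 were, beside 8.84%. At an unadjusted p under 0.05 there were 36 of the 47 members, beside 7852 of all 20131 genes tested. The response was smaller in aERKO by at least 2-fold for 24 members, beside 4.52% of all genes tested. The value was -5.35 ± 0.35 for Cxcl13 (adjusted p = 3.43e-07) and -3.61 ± 0.14 for Ccl8 (adjusted p = 2.2e-09). It was -3.60 ± 0.43 for Cxcl9 (adjusted p = 7.22e-05) and -3.10 ± 0.28 for Ccr1 (adjusted p = 6.52e-06). Of the 36 members called higher in WT, 6 were not called here, namely Ccl17, Ccl22, Ccr6, Ccr7, Cxcr5 and Xcl1, with WT differences between 0.22 and 0.64. For Ccl22 the responses were alike in size, 0.17 ± 0.08 in aERKO and 0.22 ± 0.08 in WT.

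Given vehicle, aERKO and WT were close. No member was called, and over all genes tested 5 were (0.0248%). Unadjusted p-values by limma were under 0.05 for 3 of the 47 members, beside 864 of all 20131 genes tested. Cxcl13 was -0.57 ± 0.25 in aERKO_vehicle relative to WT_vehicle, Ccl8 0.22 ± 0.10 and Ccr4 0.36 ± 0.16. Groups did not overlap for Ccr4, Cxcl10 and Xcl1, 3 members beside 12.1% of all genes tested. Cxcl13 measured 6.74, 6.60 and 6.06 in aERKO_vehicle, against 7.58, 6.67 and 6.88 in WT_vehicle. The groups overlapped, since the highest aERKO_vehicle array lay inside the WT_vehicle range.

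Given DES, aERKO was lower than WT for 35 members, beside 24.6% of all genes tested, and at least 2-fold lower for 24, beside 4.82%. Of the 34 members that passed the filter on the arrays outside WT_DES 22 were lower, beside 23.1% of such genes, and with no filter 36 of all 54 were, beside 16.9%. This comparison uses the same WT_DES arrays as the comparison of DES with vehicle in WT, so the genes found in both are not separate evidence. Groups did not overlap for 36 members, beside 55.9% of all genes tested. Cxcl13 was -5.92 ± 0.25 in aERKO_DES relative to WT_DES (adjusted p = 1.95e-09), Cxcl9 -4.16 ± 0.30 and Ccl8 -3.38 ± 0.10. Higher in aERKO were 2 members, beside 27.5% of all genes tested. Ccr10 measured 6.94, 6.50 and 7.03 in aERKO_DES, against 6.12, 6.16 and 6.38 in WT_DES, a difference of 0.61 ± 0.14 (adjusted p = 0.00394). Given vehicle, Ccr10 was 0.30 ± 0.14 higher in aERKO than in WT, which was not called. Its difference between the responses to DES, 0.31 ± 0.20, was not called either (limma, adjusted p = 0.262). Ackr4 measured 6.20, 6.12 and 6.18 in aERKO_DES, against 6.00, 5.83 and 5.81 in WT_DES, a difference of 0.28 ± 0.08 (adjusted p = 0.0118). The groups were separate for both receptors, and neither was called with scaling to the hybridization controls.

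Other genes of chemokine action were counted from lists, with the all-gene shares of 20.7% higher and 23.3% lower as background. Of the 25 tested genes of receptor signalling and desensitization, 19 were higher in WT_DES, 1 was lower (Arrb1, which encodes an arrestin, -0.23) and the median was 0.57. Rac2 (2.19) and Dock2 (2.12), which drive the leukocyte cytoskeleton, Ncf1 (1.70), a subunit of the phagocyte oxidase, and Vav1 (1.57) were the largest. With scaling to the hybridization controls 21 genes of this list were higher and 0 lower, so Arrb1 was no longer called lower. Of 19 tested inducers of ligand genes 14 were higher and 0 lower, with a median of 0.63. They were led by Il1b (4.85), the interleukin 1 beta gene, and included Tnf (1.80), Il4ra (1.76) and Irf1 (1.58). Il17a was not called (0.02). Of 7 tested proteases that cut or shed chemokines 5 were higher, with Mmp8 at 2.50, Mmp2 at 1.77, Mmp9 at 1.51 and Adam17 at 1.31, the sheddase of membrane-bound chemokines. Dpp4, which trims the N terminus of several chemokines, was lower (-1.10). Of 5 tested related proteins outside the name pattern 4 were higher, among them Ppbp (0.85) and Pf4 (0.51), both of the CXC family. In aERKO 0 genes of these lists were called after DES.

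Many markers of leukocytes, fibroblasts and endothelium were higher in WT_DES, like most chemokine genes, whereas most smooth muscle markers were lower. Of 9 tested neutrophil markers 7 were higher, and the list's mean ranged over arrays from 8.19 to 8.66 in WT_DES, against 5.59 to 5.66 in WT_vehicle, where 4 of the 9 lay below the background controls. S100a8 differed by 6.72, Retnlg by 4.23 and Ngp by 2.08, each against a WT_vehicle level below the background controls, and Mpo and Camp were not called. Of 10 macrophage and monocyte markers 9 were higher, with array means of 9.62 to 10.07 in WT_DES, against 7.53 to 7.74 in WT_vehicle. The tenth, Mertk, a receptor for the uptake of dying cells, was lower (-0.46), and with scaling to the hybridization controls 0 were called lower. Of 8 tested T cell markers 7 were higher (7.06 to 7.37 in WT_DES, against 6.41 to 6.60 in WT_vehicle), and of 7 tested B cell markers 6 (7.00 to 7.37 in WT_DES, against 6.07 to 6.08 in WT_vehicle). Ms4a1, which encodes CD20 of B cells, differed by 2.85, also from a WT_vehicle level below the background controls. Dendritic cell markers were higher in 6 of 8 tested, plasma cell markers in 5 of 6, NK cell markers in 2 of 4 and mast cell markers in 2 of 5. Of 5 eosinophil markers, which bear on Ccl11, 1 passed the filter (Epx, lower by a log2 difference of -0.28), and their mean ranged from 5.60 to 5.70 in WT_DES, against 5.59 to 5.67 in WT_vehicle. With scaling to the hybridization controls Epx was not called (0.08). Of 6 fibroblast markers all were higher, of 6 blood endothelium markers all were higher, and of 6 smooth muscle markers 5 were lower, none of them with scaling to the hybridization controls. Lymphatic endothelium markers were higher in 3 of 4 tested. Of 7 epithelium markers, which bear on Ccl28, Cxcl14 and Cxcl17, 4 were higher (Cdh1, Krt8, Krt19 and Epcam) and 2 lower (Cldn3 and Krt18), with array means of 10.40 to 10.41 in WT_DES, against 10.27 to 10.31 in WT_vehicle. With scaling to the hybridization controls 4 were higher and 0 lower, and with quantile normalization 2 and 2. Of 8 seminal vesicle secretion genes 4 were lower, among them Svs1 (-0.42) and Svs2 (-0.36), and of 5 tested prostate and coagulating gland genes 3 were lower and 1 higher. Of 2 red cell markers, which bear on Ackr1, 1 was lower (Alas2, -0.40), and of 3 tested platelet markers 1 was lower (Itga2b, -0.27). With scaling to the hybridization controls 0 secretion, 0 red cell and 0 platelet genes were called, and of the prostate and coagulating gland genes 1 was lower and 2 were higher. The part of these markers in the chemokine differences was not tested. In whole tissue, more cells of a type and more RNA per cell cannot be told apart.

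WT_DES array 2 held the highest WT_DES value for 30 of the 36 members called higher (83.3%), and for 727 of the 923 genes at least 2-fold higher (78.8%). Without that array 34 members were called higher, Ccl22 and Cxcr5 being lost. The hybridization controls averaged 11.19 to 11.50 on the WT_DES arrays, against 11.69 to 11.80 in WT_vehicle, so the scale chosen moved the members together with all genes. The median of all tested genes in WT was -0.05 as deposited, 0.31 with scaling to the hybridization controls, -0.12 with median scaling and -0.10 with quantile normalization, beside member medians of 1.05, 1.41, 0.98 and 0.98. Calls over all genes were 4159 higher and 4684 lower as deposited, 8352 and 350 with the hybridization controls, 3408 and 7123 with median scaling, and 3519 and 7151 with quantile normalization. Members called higher numbered 36, 40, 35 and 36 in the same order.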

How the data were processed

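RNA of 12 seminal vesicle samples was measured on Affymetrix arrays, with the groups and numbers given by the sample titles. The deposited values are on a log2 scale, 1 per probe set. The authors used Affymetrix Expression Console and RMA, according to the submitters' processing notes. RMA corrects background, gives the arrays a common distribution and summarises the probes of a set, so a broad change in RNA can shift other genes the opposite way. For versions, settings and build the entry is: not given in the sources used here.

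Of 72688 probe sets, 30604 had exactly 1 symbol in the platform annotation, after repeats of a symbol were merged, and 2146 had several. Only the first kind were named. The RefSeq gene table of GRCm38.p6 replaced 844 older symbols, which gave 30141 genes. Of the probe sets with several symbols, 21 held a chemokine symbol and were not used. A gene with several probe sets (357 genes) was represented by the one with the highest mean. Tested genes were those above the median of an array's probe sets on 3 or more of 12 arrays, which kept 20131, among them 47 of 54 members.

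Differences were tested with limma 3.58.1 in R 4.3.3 (lmFit and eBayes, group means, all 12 arrays in 1 fit, 8 residual and 4.33 prior degrees of freedom). Tests were two-sided, with Benjamini-Hochberg adjustment over all genes tested within each of 5 comparisons and a threshold of 0.05. SEs are limma's. Exact permutation was not applied, since with 3 arrays a group its smallest p is 0.1. The number of arrays limits the precision. The scripts were tested on simulated data.

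The members, the receptor and ligand pairs, the 4 pathway lists and the marker lists were chosen with earlier results of these data known. Array values were given for members at least 2-fold different in any comparison, for those called outside the comparison of DES with vehicle in WT as far as their values bear on a result, and for their pair partners. Of each pathway list up to 4 genes with the largest called differences were named, and other genes named (Arrb1, Dpp4, Il17a, Ppbp, Pf4 and single markers) were picked with their values in view. Alternative settings varied the filter, the probe set rule, the variance moderation, the samples in the fit, the normalization, the replicate number as a block and each array in turn. Leaving out both DES arrays numbered 3 was added after seeing the data. Promoters came from RefSeq (GRCm38.p6), and the NF-kB consensus searched has 10 letters with ambiguous positions. Replicate numbers were not treated as pairs. Residuals of arrays with the same number correlated at -0.36 to 0.52 between groups, and those with different numbers at -0.57 to 0.58. The arrays numbered 3 of WT_DES, aERKO_DES and aERKO_vehicle correlated with each other at 0.37 to 0.52. With WT_vehicle array 3 they correlated at -0.004 to 0.08. An effect shared by arrays of that number was not tested.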

Additional observations from a re-analysis of the deposited data

Results flagged for a closer look

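The difference between the responses to DES, aERKO minus WT, passed the test (limma, adjusted p under 0.05) for 30 of 47 tested members. In each of the 30 the response in aERKO was the smaller, a call made for 14.1% of all genes tested. Of the 30, 11 passed the filter only because of WT_DES, which favoured such a call. Among CXC ligands the difference on the log2 scale was -5.35 for Cxcl13, -3.60 for Cxcl9, -2.07 for Cxcl5, -2.07 for Cxcl2 and -1.80 for Cxcl15. It was -1.36 for Cxcl14, -1.20 for Cxcl16, -1.05 for Cxcl12, -1.001 for Cxcl1, -0.98 for Cxcl17 and -0.87 for Cxcl10. Among CC ligands it was -3.61 for Ccl8, -2.71 for Ccl9, -1.89 for Ccl6, -1.81 for Ccl5, -1.50 for Ccl3 and -1.44 for Ccl7. It was -1.32 for Ccl12, -1.32 for Ccl28, -1.32 for Ccl11, -1.25 for Ccl2, -0.88 for Ccl19 and -0.87 for Ccl20. Among receptors it was -3.10 for Ccr1, -2.45 for Ccr2, -1.90 for Cxcr6, -1.71 for Cxcr2, -1.39 for Cxcr4, -0.86 for Ackr1 and -0.73 for Cx3cr1.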

How the results depend on the processing

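The 3 arrays of a group limit every comparison. Of the values recomputed under the alternatives, 4922 stayed on their side of the threshold, 43 gained a call and 33 lost one. The 4922 include values that were not called before or after, for which a change of direction was not counted. With the filter at the 75th percentile, which tested 12530 genes and 22 members, the counts fell with the number tested: 19 members higher and 0 lower after DES in WT, 19 with a smaller response in aERKO, and 0 higher and 19 lower in aERKO than in WT given DES. After DES in WT, 2 members were lower with quantile normalization (Ackr4 and Ccl27a), 2 with median scaling (Ackr4 and Ccl25) and 0 with the hybridization controls. In aERKO relative to WT given DES, 5 were higher with median scaling, 0 with the hybridization controls and 1 without both DES arrays numbered 3. A response higher in aERKO was called for 1 member, Ackr4, with median scaling. With the replicate block, that count was also 1 (Ackr4), and 33 members had a smaller response in aERKO in place of 30, with Ccr6, Ccr7 and Xcl1 added. The block also added Ccl26 in aERKO relative to WT given DES (3 members higher in place of 2), and it changed no call of a member in the other 3 comparisons. Leaving out each array in turn gave 34 to 38 members higher and 1 lower after DES in WT, and 0 in either direction in aERKO. It gave 30 to 33 members with a smaller and 0 to 1 with a larger response in aERKO, and 33 to 36 lower and 2 to 4 higher in aERKO than in WT given DES (4 without WT_DES array 3, where Ccl24 and Ccl26 were added). The cause of these changes was not tested.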

Other observations

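Members that lie next to each other on a chromosome, with no other protein-coding gene between them in GRCm38.p6, could differ in their calls after DES in WT. Cxcr2 (1.71) was higher and its neighbour Cxcr1 (-0.09) was not called. In the row of Cxcl3, Cxcl15, Cxcl1 and Cxcl2 on chromosome 5, Cxcl3 (0.20) was not called and the other 3 were higher. Between Ccl22 (0.22) and Ccl17 (0.64) on chromosome 8, both called higher, lies Cx3cl1 (0.08), which was not called. In the row of Ccl2, Ccl7, Ccl11, Ccl12, Ccl8 and Ccl1 on chromosome 11, all 5 tested members were higher. Whether neighbours resemble each other more than other members was not tested.

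Esr2, which encodes estrogen receptor beta, was lower after DES in WT by a log2 difference of -0.42 ± 0.07 (SE, limma, adjusted p = 0.000496), with 6.25, 6.05 and 6.21 in WT_DES, against 6.60, 6.59 and 6.59 in WT_vehicle. This value is on the deposited scale and is not given here for other scalings. Scaling to the hybridization controls moved the median of all tested genes in WT from -0.05 to 0.31, so the Esr2 difference depends on the scale.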
